A study of Mus musculus with 8 samples.

Results

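The transforming growth factor beta (TGF-beta) and bone morphogenetic protein (BMP) signalling genes comprised 38 genes selected by name, from ligands and latent binding proteins through receptors and SMADs to antagonists, co-repressors and targets. Of these, 37 had at least 1 probe annotated to their symbol among the 16593 named genes of the array, with 64 of its 25697 probes, and Ctgf was read under its current name Ccn2. No probe of the platform table used here was annotated to Smad7. Total RNA came from the hypothalamus of 13-week-old C57BL/6 males, of which 4 carried the genotype Bgn_KO (knockout of the biglycan gene) and 4 were WT, with 1 array for each of the 8 samples. All mice ate the same rodent diet, and the labels name no treatment. The labels do not describe the disrupted allele or whether the WT mice were littermates, and the tissue was a dissected block of many cell types.

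TGF-beta and BMP ligands are secreted dimers that bring together type I and type II receptor kinases, which then phosphorylate receptor-regulated SMAD proteins. TGF-betas act mainly through SMAD2 and SMAD3 and BMPs through SMAD1, SMAD5 and SMAD9, and both kinds join SMAD4 and enter the nucleus to control genes such as the Id family. TGF-beta is held in the matrix in a latent form, and extracellular antagonists trap BMPs. Biglycan, the proteoglycan that Bgn encodes, can bind TGF-beta and BMP4, so the comparison of Bgn_KO with WT asks whether transcripts of this pathway differ when it is disrupted.

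A detection p-value under 0.05, taken here as above background, was reached by 13820 to 14502 probes on an array, and the median deposited signal ranged from 180 to 225. The mean of the 10 detected hypothalamic markers lay between 11.98 and 12.42 on the log2 scale on all arrays. The 2 detected cortical markers reached 9.91 on Bgn_KO replicate 4 (5.69 to 7.49 elsewhere), 3 skeletal muscle markers 12.16 on WT replicate 4 (6.36 to 6.90 elsewhere), and 2 pituitary markers 8.53 on Bgn_KO replicate 1 and 8.32 on WT replicate 2 (4.54 to 5.70 elsewhere). Bgn itself, read by probe ILMN_2964042, was at 8.94, 9.01, 8.99 and 8.79 on Bgn_KO replicates 1 to 4 and at 8.86, 10.44, 10.14 and 9.53 on WT replicates 1 to 4. The array labelled WT replicate 1 thus lay within the Bgn_KO range, and the log2 difference (Bgn_KO minus WT, as throughout) came to -0.81 (SE 0.29). Its adjusted p in limma was 0.390 and its exact permutation p, two-sided, 0.114, where 4 against 4 arrays can reach 0.0286. The array labelled WT replicate 1 also had the lowest mean of meningeal fibroblast markers among the WT arrays (7.32 against 7.70 to 8.96), and leaving that array out put Bgn at -1.10 (limma adjusted p = 0.0893). This was the largest Bgn difference with 1 array left out. The smallest was -0.58 without WT replicate 2, the array highest in Bgn (limma adjusted p = 0.465). It was not known here whether the probe lies in the disrupted part of the gene. Directions below rest on the labels as deposited.

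Transcripts of the core pathway were detected widely, while several ligands, receptors and antagonists were at background. Probes were tested if they were above background on at least 4 of the 8 arrays, which 38 of the 64 probes were, from 29 genes. A probe that passed through 1 group alone had to differ between the groups, and the Tgfbr1 probe ILMN_2980532 was such a probe. Of the 64 probes, 33 (from 26 genes) were above background on all 8 arrays and 17 on none. The 8 genes with no tested probe were the ligands Bmp2 and Bmp6, the receptors Acvrl1 and Bmpr2, the BMP-specific Smad9, and Grem1, Fst and Bambi, 3 inhibitors of these signals. Acvrl1, which serves endothelium, and Bmp6 were above background on 1 array each and Bmpr2, the type II BMP receptor, by 1 of its 2 probes on 1 array. Probes differ in how they bind, so a dim probe does not show that a transcript is absent.

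**Figure D1:**
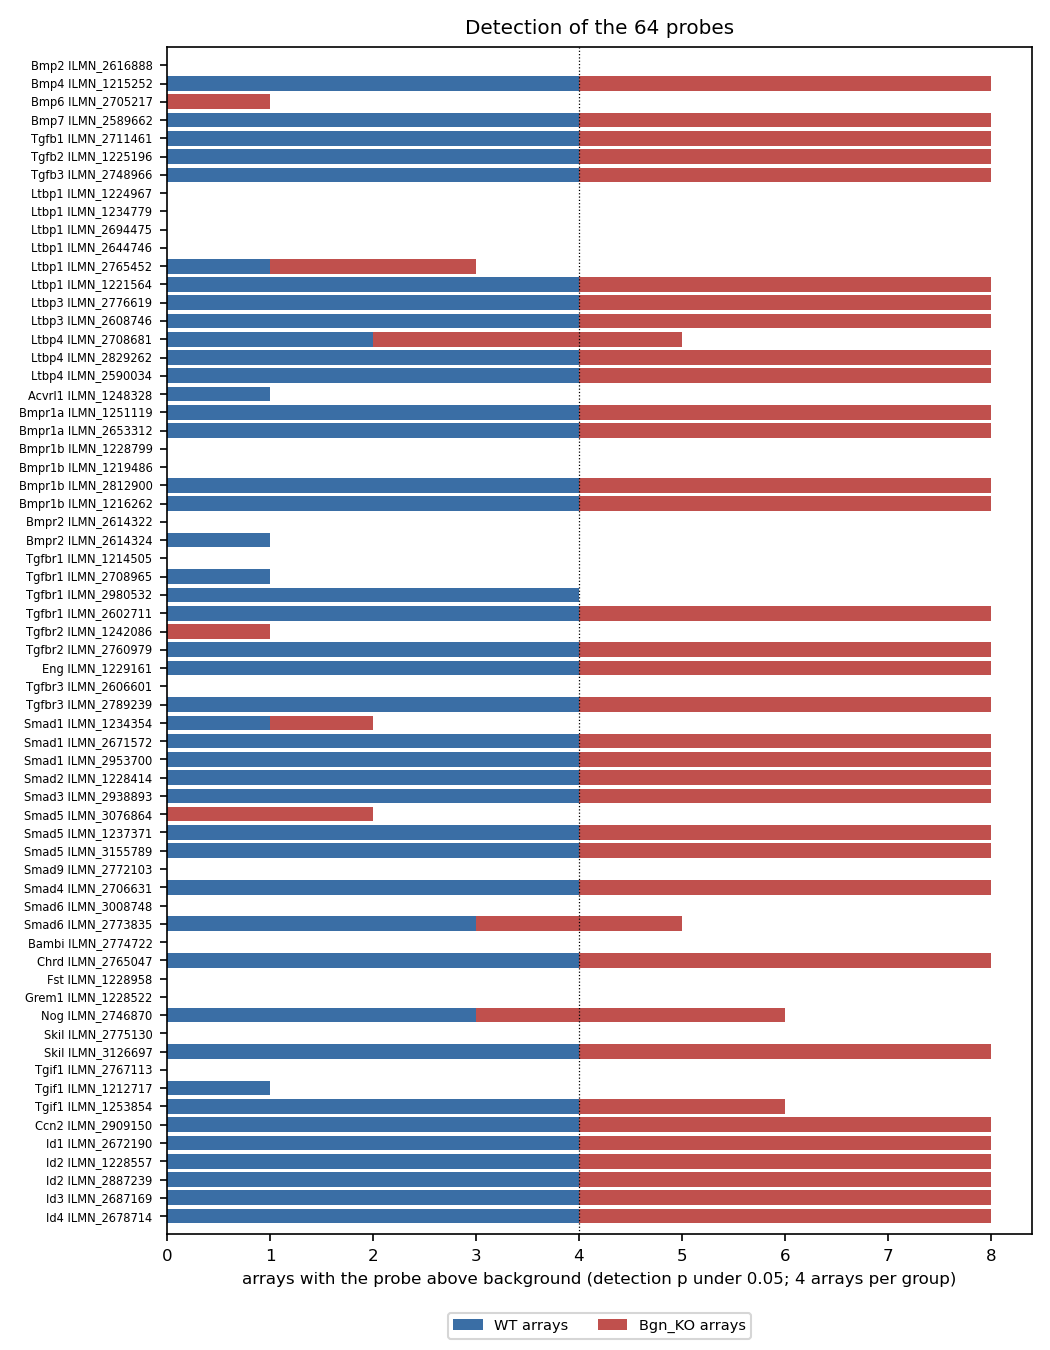
Number of arrays on which each of the 64 probes was above background (horizontal axis, arrays, detection p under 0.05), with WT arrays in blue and Bgn_KO arrays in red and the probes ordered by role. Most probes were above background on all 8 arrays or on none, and Tgfbr1 ILMN_2980532 was above it on the 4 WT arrays and on 0 Bgn_KO arrays.

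Across the pathway, differences between Bgn_KO and WT were small and 1 probe, a dim probe of the receptor Tgfbr1, passed the test. It was 1 of 38 tested probes (2.63%), where 0.507% of all 14190 tested probes passed an adjusted p of 0.05 (limma, Benjamini-Hochberg over all tested probes). This probe entered the test through the WT arrays alone, so nothing is read from the share, and 0 passed when all probes of the array were tested. With each gene read by its brightest probe, 21 of the 29 genes were lower and 8 higher in Bgn_KO, with a median log2 difference of -0.10. Over all 9782 tested genes 48.1% were lower and the median was 0.01. The differences of the 29 genes ran from -0.63 for Tgif1 to 0.38 for Chrd, and 21 were smaller than 0.3 in size. Of the 38 probes, 7 (18.4%) had an unadjusted limma p under 0.05, against 10.2% of all tested probes, and 4 (10.5%) had groups that did not overlap, against 6.15%. The Tgfbr1 probe ILMN_2980532, which had to differ, is in both counts, so nothing is read from these shares either. The median standard error of the 38 differences was 0.15. A difference has to be well above its standard error to pass, and Id3, at -0.47 with a standard error of 0.11, did not (limma adjusted p = 0.161). Differences under 0.3 in size could thus go unresolved with 4 arrays per group.

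By role, all 5 targets, here the 4 Id genes and Ccn2, were lower (median log2 difference -0.45). So were 4 of 4 receptors (-0.22) and 4 of 5 ligands (-0.13), where 48.1% of all tested genes were lower. All 3 latent binding proteins were higher (0.04), and 2 of 4 receptor-regulated SMADs were lower (0.01). With median scaling, which moved the median of all genes to -0.06, Tgfb2 (-0.05), Ltbp1 (-0.0015), Ltbp3 (-0.05) and Smad5 (-0.05) were on the lower side too, and the other genes of these roles kept their side. The brightest probe of 0 of the 29 genes passed 0.05 by limma, and these counts were not tested. Of those probes 6 had an unadjusted limma p under 0.05, where 10.2% of all tested probes did. The share over all genes read by their brightest probe was not computed, so nothing is read from the 6. Marker lists of other cell types lay on both sides, more of them lower than higher. In Bgn_KO 9 of 10 hypothalamic markers were lower (difference of list means -0.11), and 4 of 5 of oligodendrocyte precursors (-0.11). Ependymal and tanycyte markers were lower for 3 of 3 (-0.12), astrocyte markers for 5 of 8 (-0.01) and endothelial markers for 5 of 7 (-0.02). All 7 detected oligodendrocyte markers were lower in Bgn_KO, with list means of 11.60 to 11.83 against 11.92 to 12.37 on WT arrays, and 7 of 8 meningeal fibroblast markers were lower (7.08 to 8.52 against 7.32 to 8.96). Microglial markers were lower for 6 of 7 (8.26 to 8.65 against 8.47 to 8.74) and choroid plexus markers for 3 of 4 (7.26 to 8.01 against 7.98 to 8.37). Markers of pericytes and smooth muscle were higher for 5 of 7 (7.79 to 8.50 against 7.35 to 7.9997), among them Rgs5, the pericyte regulator of G-protein signalling, which rose by 1.595 on the log2 scale (limma adjusted p = 0.01001), and neuronal markers for 4 of 5 (11.39 to 11.80 against 11.44 to 11.55). Rgs5 alone of its list passed the threshold, and the other detected genes of that list ran from -0.16 for Vtn to 0.29 for Myh11. In bulk tissue fewer cells of a type and less RNA per cell cannot be told apart. The part of these cell types in the differences was not tested, other than for meningeal and endothelial markers as covariates. With the meningeal marker mean as a covariate 18 of 29 genes were lower and the median was -0.05, and with the endothelial one 20 and -0.11.

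**Figure D2:**
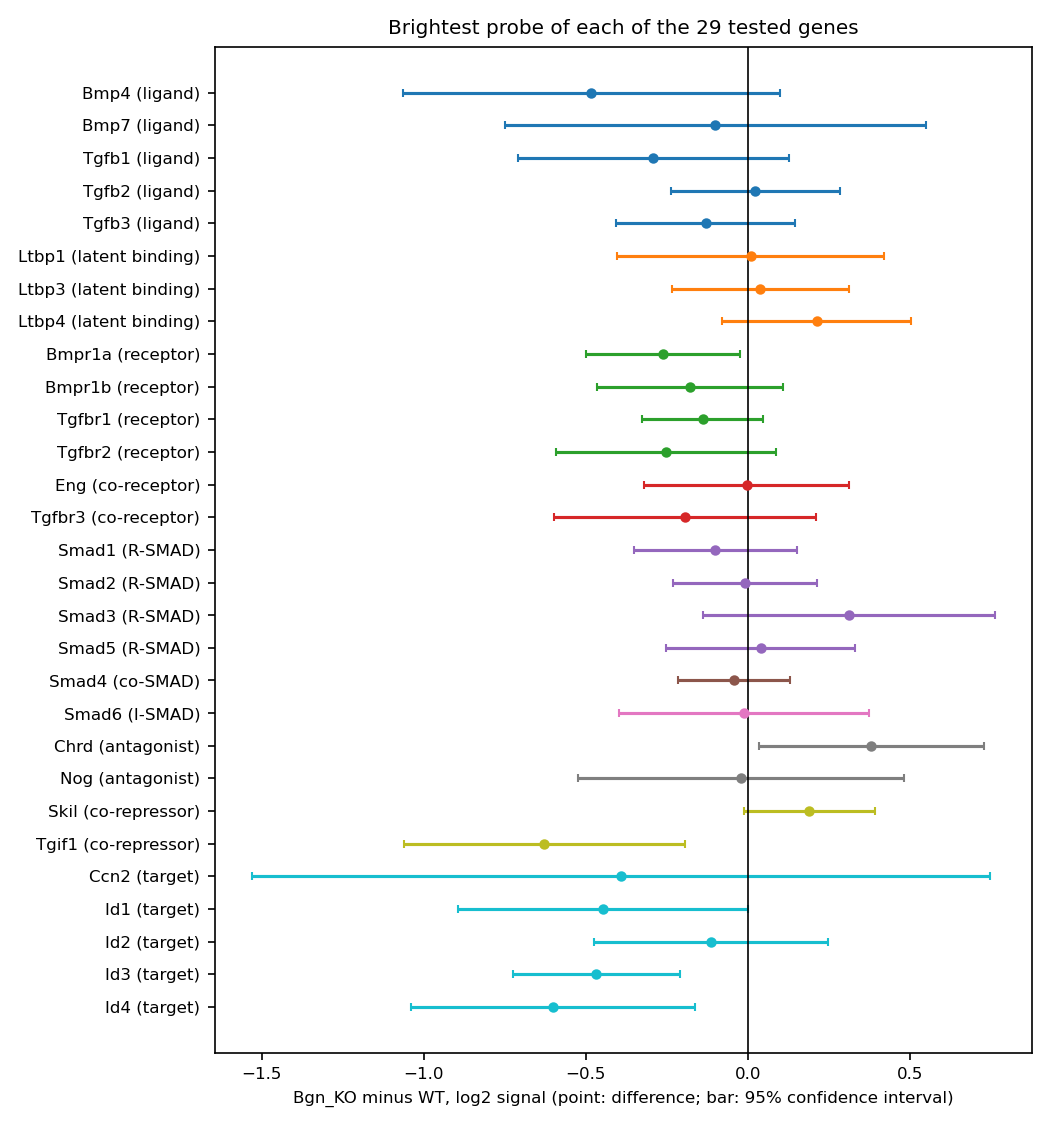
Difference in log2 signal, Bgn_KO minus WT (horizontal axis), of the brightest probe of each of the 29 tested genes, coloured by role, with 95% confidence intervals from limma (4 arrays per group). Points lie between -0.63 (Tgif1) and 0.38 (Chrd), all 5 targets are on the lower side, and intervals that exclude 0 are those of Bmpr1a, Chrd, Tgif1, Id1, Id3 and Id4, none past the adjusted threshold.

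The Id genes encode proteins that dimerise with basic helix-loop-helix transcription factors and keep them from DNA, and they are the best known direct targets of BMP signals. All 4 were lower in Bgn_KO in mean signal and none passed the adjusted test. No start window was found for Id1. The sequences around the starts of Id2, Id3 and Id4 are shown because these targets are where the pathway reaches the genome. They run from 250 bases before to 50 after the RefSeq start (GRCm38.p6), 5′ to 3′ on the strand of the gene, with capitals at GGCGCC, letters of a GC-rich BMP element, and at CAGAC or its reverse complement GTCTG, letters that SMADs can bind.
Id2 (chr12:25096043-25096342, minus strand): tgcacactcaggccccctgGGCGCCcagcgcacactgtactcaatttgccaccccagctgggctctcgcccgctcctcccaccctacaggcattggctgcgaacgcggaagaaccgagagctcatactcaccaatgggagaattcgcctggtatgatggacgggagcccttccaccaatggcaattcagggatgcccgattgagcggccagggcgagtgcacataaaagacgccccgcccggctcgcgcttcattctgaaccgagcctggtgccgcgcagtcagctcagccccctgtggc
Id3 (chr4:136143572-136143871, plus strand): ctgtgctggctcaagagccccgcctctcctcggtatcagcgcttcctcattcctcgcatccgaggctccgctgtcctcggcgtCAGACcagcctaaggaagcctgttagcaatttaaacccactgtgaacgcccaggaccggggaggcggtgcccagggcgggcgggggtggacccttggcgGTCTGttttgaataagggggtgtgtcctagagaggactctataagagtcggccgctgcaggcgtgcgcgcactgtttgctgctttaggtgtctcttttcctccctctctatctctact
Id4 (chr13:48260866-48261165, plus strand): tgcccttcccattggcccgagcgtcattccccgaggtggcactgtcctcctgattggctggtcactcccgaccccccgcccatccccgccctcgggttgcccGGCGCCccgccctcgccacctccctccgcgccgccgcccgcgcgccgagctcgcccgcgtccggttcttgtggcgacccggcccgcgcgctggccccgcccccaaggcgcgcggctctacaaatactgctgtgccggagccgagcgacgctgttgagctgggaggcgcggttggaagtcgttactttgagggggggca
The Id2 and Id4 windows held GGCGCC 1 time each and CAGAC 0 times on either strand, and the Id3 window held CAGAC 1 time on each strand and GGCGCC 0 times. Of 36 RefSeq start windows found for 24 of the 38 genes, 12 (33.3%) held GGCGCC, which reads the same on both strands, against 11.9% of all 32851 windows. CAGAC was in 17 of the 36 (47.2%) and in 49.6% of all windows. The windows of these genes were also richer in G and C, with a median of 63.7% against 52.7%, so the share of GGCGCC is a description of their letters alone.

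Id3 (probe ILMN_2687169, chromosome 4) had log2 signals of 7.86, 7.79, 7.53 and 7.46 on Bgn_KO replicates 1 to 4 and of 8.002, 8.22, 8.07 and 8.22 on WT replicates 1 to 4. Every Bgn_KO array was below every WT array. The difference was -0.47 (SE 0.11, 95% confidence interval -0.73 to -0.21), 1.38-fold lower in Bgn_KO, with a limma adjusted p of 0.161 and an exact permutation p of 0.0286, the smallest possible. It was -0.46 with the meningeal marker mean as a covariate (limma adjusted p = 0.226).

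Id4 (ILMN_2678714, chromosome 13), which is known for roles in neural stem cells and astrocytes, was at 9.17, 8.87, 9.22 and 8.90 on Bgn_KO replicates 1 to 4. On the WT arrays it was at 9.87, 9.05, 9.68 and 9.96. WT replicate 2 lay among the Bgn_KO arrays and the other WT arrays lay above them all. The difference was -0.60 (SE 0.19, interval -1.04 to -0.16, limma adjusted p = 0.313). Without WT replicate 2 it was -0.80 with a limma adjusted p of 0.0507, the closest that any of the 4 Id genes came to the threshold with 1 array left out. That was also the largest Id4 difference with 1 array left out, and the smallest was -0.49 without WT replicate 4 (limma adjusted p = 0.576).

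Id1 (ILMN_2672190, chromosome 2), which endothelial cells make in response to BMPs, was at 8.20, 7.85, 7.64 and 8.51 on the Bgn_KO arrays and at 8.16, 8.68, 8.69 and 8.46 on the WT arrays. The groups overlapped, since Bgn_KO replicates 1 and 4 lay above the array labelled WT replicate 1, and replicate 4 also above WT replicate 4. The difference was -0.45 (SE 0.20, interval -0.89 to -0.0015, limma adjusted p = 0.491) and -0.30 with the meningeal marker mean as a covariate (limma adjusted p = 0.360). The endothelial marker list, in which 7 genes were detected, had nearly the same mean in both groups (9.04 to 9.28 in Bgn_KO and 9.03 to 9.26 in WT).

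Id2 (ILMN_1228557, chromosome 12) was at 9.43, 9.69, 9.45 and 9.97 on the Bgn_KO arrays and at 9.81, 9.39, 9.81 and 9.98 on the WT arrays. These values were intermixed, and the difference was -0.11 (SE 0.16, interval -0.48 to 0.25, limma adjusted p = 0.862). Its second probe differed by -0.21 (SE 0.26).

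No pair of Id genes was related past the test from array to array. Over the 8 arrays the highest of the 6 pairwise correlations was that of Id3 and Id4, with Pearson's r of 0.58 (exact permutation p = 0.131, 0.462 after Benjamini-Hochberg adjustment over 6 pairs) and Spearman's rho of 0.48 (exact permutation p = 0.243, adjusted 0.654). It was 0.50 without the 2 arrays farthest in Id3, Bgn_KO replicates 3 and 4, and -0.16 for the deviations from the group means. The other pairs had r between 0.01 and 0.55, with adjusted exact permutation p of 0.462 or more.

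**Figure D3:**
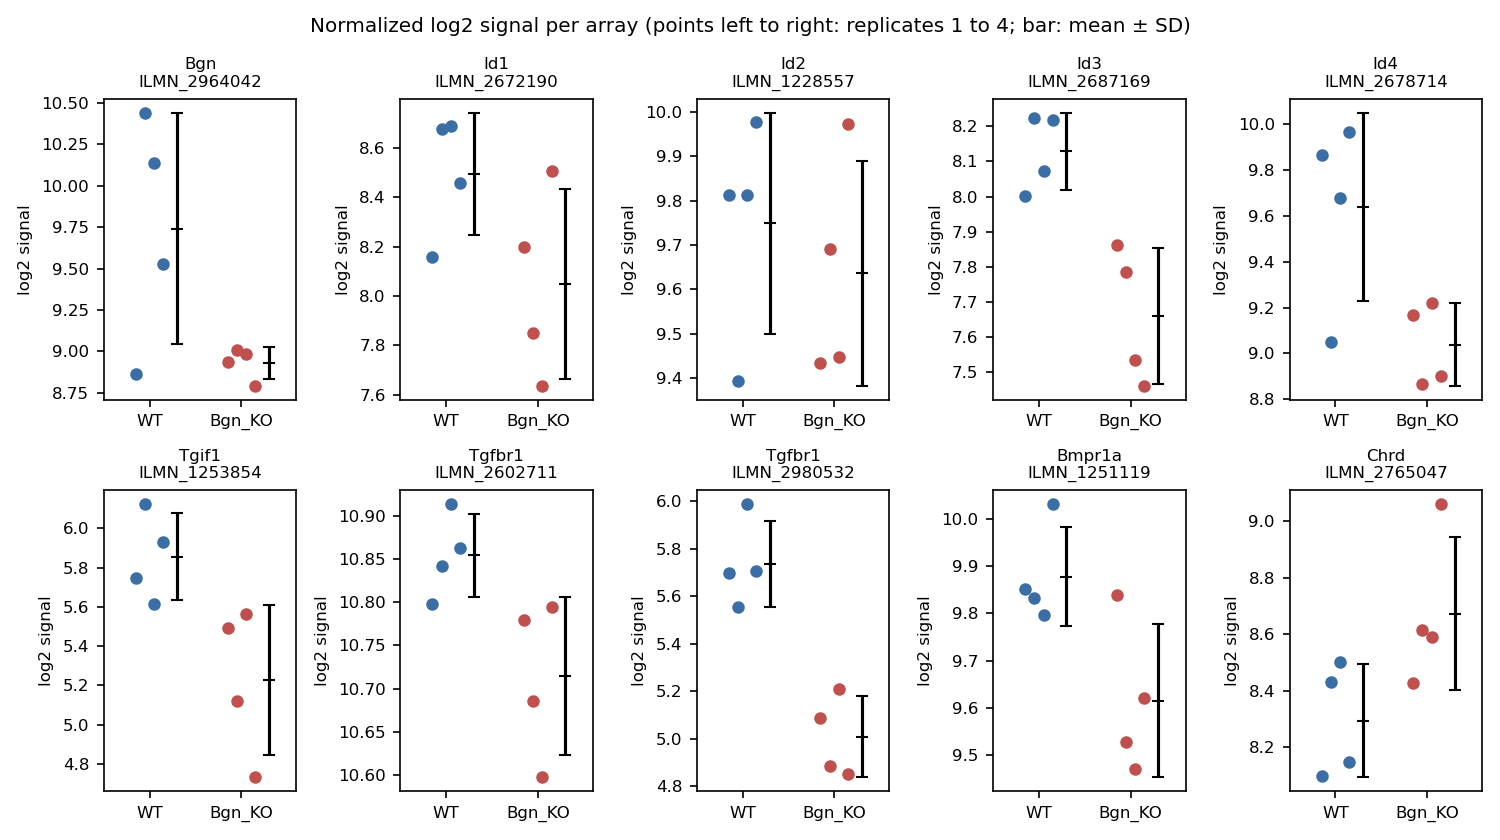
Normalized log2 signal (vertical axis, scaled to each panel and not starting at 0) on each of the 4 WT (blue) and 4 Bgn_KO (red) arrays for Bgn, the 4 Id genes, Tgif1, both tested Tgfbr1 probes, Bmpr1a and Chrd, with points from left to right as replicates 1 to 4 and bars for mean ± SD. The groups are apart for Id3, Tgif1 and both Tgfbr1 probes and overlap for the others, and the WT array in the Bgn_KO range of Bgn is the one labelled WT replicate 1.

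Ccn2 encodes connective tissue growth factor, a matricellular protein and a classical target of TGF-beta. Its log2 signal spanned the widest range of the 29 tested genes within each group: 9.49, 8.78, 8.68 and 10.77 on the Bgn_KO arrays and 8.95, 10.7, 10.18 and 9.46 on the WT arrays. High and low arrays occurred in both genotypes, and the difference was -0.39 with a wide interval of -1.53 to 0.75 (SE 0.50, limma adjusted p = 0.845).

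The arrays high in Ccn2 were those high in markers of meningeal fibroblasts, the cells of the membranes around the brain. The mean of 8 detected markers (Aldh1a2, Dcn, Igf2, Islr, Lum, Ogn, Slc22a6 and Slc6a13) was 8.17, 7.37, 7.08 and 8.52 on the Bgn_KO arrays and 7.32, 8.96, 8.53 and 7.70 on the WT arrays, while the fibrillar collagens of the list were at or near background (Col1a1 above it on 3 arrays, Col1a2 on 1 and Col3a1 on 0). Ccn2 followed this mean with Pearson's r of 0.95 over the 8 arrays (exact permutation p = 0.000595, 0.0173 after adjustment over the 29 genes) and Spearman's rho of 0.90 (exact permutation p = 0.00456, adjusted 0.0662). It was 0.92 without Bgn_KO replicate 3 and WT replicate 2, the arrays farthest from the median of the markers, and 0.95 for the deviations from the group means. With the marker mean as a covariate the genotype difference of Ccn2 was 0.01 in place of -0.39, and it ran from -0.84 without Bgn_KO replicate 4 to -0.10 without WT replicate 2.

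The smooth muscle transcripts Acta2 and Myh11 were high on the same arrays. Acta2, smooth muscle actin, was at 11.09, 10.64, 10.59 and 12.04 on the Bgn_KO arrays and at 10.54, 11.78, 11.46 and 10.25 on the WT arrays by its brightest probe, and Myh11, smooth muscle myosin, was highest on Bgn_KO replicate 4 (6.81) and WT replicate 2 (6.79), the arrays highest in Ccn2. The meningeal markers were therefore not the only transcripts that moved with Ccn2. Not all genes of the pericyte and smooth muscle list did: Rgs5 was at 6.75 to 6.89 on the WT arrays and lowest among the Bgn_KO arrays on replicate 1 (7.72). No relation of that list to Ccn2 was computed, and the parts of the 2 kinds of cell were not told apart.

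Bmp7, a ligand known to be made by the meninges, followed the same arrays, at 7.01, 6.49, 6.74 and 7.27 in Bgn_KO and 6.50, 7.76, 7.15 and 6.50 in WT. Its Pearson's r with the marker mean was 0.90 (exact permutation p = 0.00327, adjusted 0.0475) and Spearman's rho 0.76 (exact permutation p = 0.0368, adjusted 0.178), with r of 0.96 without the 2 farthest arrays and 0.91 within groups. Its genotype difference was -0.10 (SE 0.29), and 0.11 with the covariate. Ccn2 and Bmp7 were the only genes of the 29 to pass 0.05 by the adjusted Pearson test, and none did by the adjusted Spearman test, at which Id1 was lowest (rho 0.93, exact permutation p = 0.00223, adjusted 0.0647). Id1 (r 0.87), Bmp4 (0.84), Tgfbr3 (0.81) and Tgfbr2 (0.78) came next, each with an adjusted exact permutation p of 0.0710 or 0.0718 for r, and r of 0.77, 0.67, 0.83 and 0.62 in that order without the 2 farthest arrays. For Id3 r was 0.30 (exact permutation p = 0.461, adjusted 0.860), and -0.33 without those arrays. These 29 relations were computed after earlier results of these data were known.

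**Figure D4:**
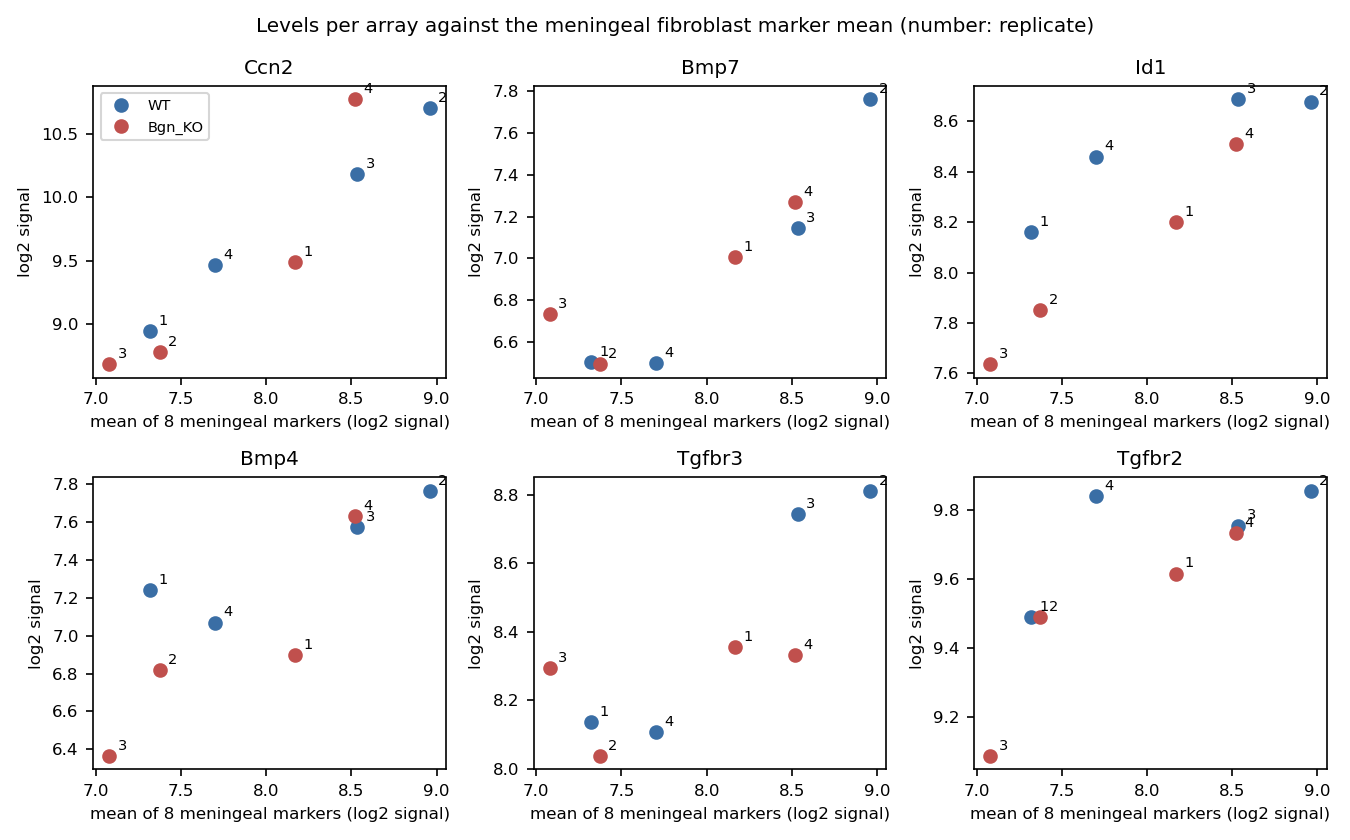
Log2 signal of Ccn2, Bmp7, Id1, Bmp4, Tgfbr3 and Tgfbr2 (vertical axes) against the mean log2 signal of 8 meningeal fibroblast markers (horizontal axis) on the 4 WT (blue) and 4 Bgn_KO (red) arrays, numbered by replicate. Ccn2 rises along the marker mean over both genotypes (r 0.95), and for Id1 the Bgn_KO arrays lie below WT arrays of like marker level.

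Among the receptors, Tgfbr1, the type I receptor kinase of TGF-beta, held the 1 call of the pathway. Its probe ILMN_2980532 was at 5.09, 4.88, 5.21 and 4.85 on the Bgn_KO arrays and at 5.70, 5.55, 5.99 and 5.70 on the WT arrays. It stood above background on every one of the 4 WT arrays and was not above background on any Bgn_KO array. With the Bgn_KO arrays at background only a bound can be given, and it holds for this processing alone. Against the lowest signal above background on each Bgn_KO array, the probe was at least 1.32-fold lower in Bgn_KO. The limma adjusted p of 0.0441 belongs to the fitted log2 difference of -0.73, and the bound was not tested. Because the probe was tested through its WT arrays alone, it had to differ, and the p does not stand as support for a difference. The call did not hold with any 1 array left out (limma adjusted p 0.0529 to 0.137), the array labelled WT replicate 1 among them (0.0941). Testing all probes, dim ones included, also ended it (0.0586), as did median scaling (0.0593) and leaving out background correction, where the fitted log2 difference was -0.19 (0.261) in place of -0.73.

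The brightest Tgfbr1 probe, ILMN_2602711, was at 10.78, 10.69, 10.60 and 10.79 on the Bgn_KO arrays and at 10.80, 10.84, 10.91 and 10.86 on the WT arrays. The groups again did not overlap, though by a narrow margin between Bgn_KO replicate 4 and the array labelled WT replicate 1. This probe differed by -0.14 (SE 0.08, interval -0.33 to 0.05, limma adjusted p = 0.600). The remaining probes of the gene were above background on 1 array and on none, so the call rested on 1 dim probe, and the difference between the probes was not tested.

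Bmpr1a, a type I receptor for BMPs, was at 9.84, 9.53, 9.47 and 9.62 on the Bgn_KO arrays and at 9.85, 9.83, 9.80 and 10.03 on the WT arrays by its brighter probe ILMN_1251119. Bgn_KO replicate 1 reached into the WT range and the other Bgn_KO arrays lay below it. The difference was -0.26 (SE 0.11, interval -0.50 to -0.03, limma adjusted p = 0.442), and that of the second probe -0.04 (SE 0.20). Bmpr1b, the related type I receptor, differed by -0.18 (SE 0.13) and -0.19 (SE 0.15) by its 2 detected probes. 

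Tgfbr2, the type II receptor that binds TGF-beta first, was at 9.62, 9.49, 9.09 and 9.73 on the Bgn_KO arrays and at 9.49, 9.86, 9.76 and 9.84 on the WT arrays. Bgn_KO replicate 3 was the lowest array and the rest overlapped, with a difference of -0.25 (SE 0.15, interval -0.59 to 0.09, limma adjusted p = 0.602). The difference was -0.12 without Bgn_KO replicate 3 and -0.17 with the meningeal marker mean as a covariate. Of the co-receptors, Tgfbr3 (betaglycan, which presents TGF-beta2) differed by -0.20 (SE 0.18), or -0.07 without WT replicate 2, and Eng (endoglin, an endothelial co-receptor) by less than 0.01 in size (SE 0.14).

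The ligands showed no difference past the test. Bmp4 had the largest, at -0.48 (SE 0.26, interval -1.06 to 0.10, limma adjusted p = 0.574), with values of 6.90, 6.82, 6.37 and 7.63 on the Bgn_KO arrays and 7.24, 7.77, 7.57 and 7.07 on the WT arrays. Bgn_KO replicate 4 was among the highest arrays and the other Bgn_KO arrays were below all WT arrays. With the meningeal marker mean as a covariate the difference was -0.30 (limma adjusted p = 0.541). Without Bgn_KO replicate 3 it was -0.30. Tgfb1, read by a dim probe, differed by -0.29 (SE 0.19), by -0.15 without WT replicate 2 and by -0.09 without background correction. Tgfb3 differed by -0.13 (SE 0.12) and Tgfb2 by 0.02 (SE 0.12, interval -0.24 to 0.28).

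The latent TGF-beta binding proteins, which tether the latent ligand to the matrix, had small differences. The 3 tested Ltbp4 probes differed by 0.21 (SE 0.13), 0.18 (SE 0.15) and 0.22 (SE 0.21), none past the test (limma adjusted p 0.618 to 0.765). Ltbp3 differed by 0.04 (SE 0.12) by its bright probe and by -0.25 (SE 0.21) by its dim one. Ltbp1 differed by 0.01 (SE 0.18) by the only 1 of its 6 probes that was tested.

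The SMADs carry the signal from the receptors to the nucleus, and none differed past the test. Smad4, the common partner, differed by -0.04 with an interval of -0.22 to 0.13 (SE 0.08). Smad1 differed by -0.10 (SE 0.11), Smad2 by -0.01 (SE 0.10) and Smad5 by 0.04 (SE 0.13), and the second probes of Smad1 and Smad5 by -0.09 and -0.04. Smad3, a mediator of TGF-beta signals, had the largest difference of the tested SMADs. It was at 8.24, 7.91, 8.38 and 8.77 on the Bgn_KO arrays and at 7.66, 8.38, 8.01 and 7.998 on the WT arrays. Bgn_KO replicate 4 was the highest and the array labelled WT replicate 1 the lowest, and between them the genotypes were intermixed, with a difference of 0.31 (SE 0.20, interval -0.14 to 0.76, limma adjusted p = 0.638), which was 0.16 without Bgn_KO replicate 4 and 0.19 without the array labelled WT replicate 1. The inhibitory Smad6, a BMP target above background on 5 arrays, differed by -0.01 (SE 0.17).

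Of the antagonists, Chrd (ILMN_2765047), which encodes the BMP trap chordin, was higher in Bgn_KO in mean signal, at 8.43, 8.62, 8.59 and 9.06 on the Bgn_KO arrays and 8.10, 8.43, 8.50 and 8.15 on the WT arrays. Bgn_KO replicate 1 lay below WT replicates 2 and 3, and the other Bgn_KO arrays lay above all WT arrays. The difference was 0.38 (SE 0.15, interval 0.03 to 0.73, limma adjusted p = 0.450), and 0.25 without Bgn_KO replicate 4, the array with the most cortical marker signal. Nog, which encodes the BMP trap noggin and was above background on 6 arrays, differed by -0.02 (SE 0.22).

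The co-repressors lay on opposite sides. Tgif1 (ILMN_1253854), a homeodomain protein that restrains SMAD2 and SMAD3, was at 5.49, 5.12, 5.56 and 4.73 on the Bgn_KO arrays and at 5.75, 6.12, 5.61 and 5.93 on the WT arrays. The groups did not overlap, and the probe stood above background on the 4 WT arrays and on 2 of the Bgn_KO arrays. The difference was -0.63 (SE 0.19, interval -1.06 to -0.20, limma adjusted p = 0.284), and -0.17 without background correction. Skil, which encodes the SMAD-binding co-repressor SnoN, was at 10.27, 10.18, 10.34 and 10.46 on the Bgn_KO arrays and at 10.16, 10.06, 10.19 and 10.08 on the WT arrays. The groups overlapped by Bgn_KO replicate 2 and WT replicate 3 alone. The difference was 0.19 (SE 0.09, interval -0.01 to 0.39, limma adjusted p = 0.523).

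**Figure D5:**
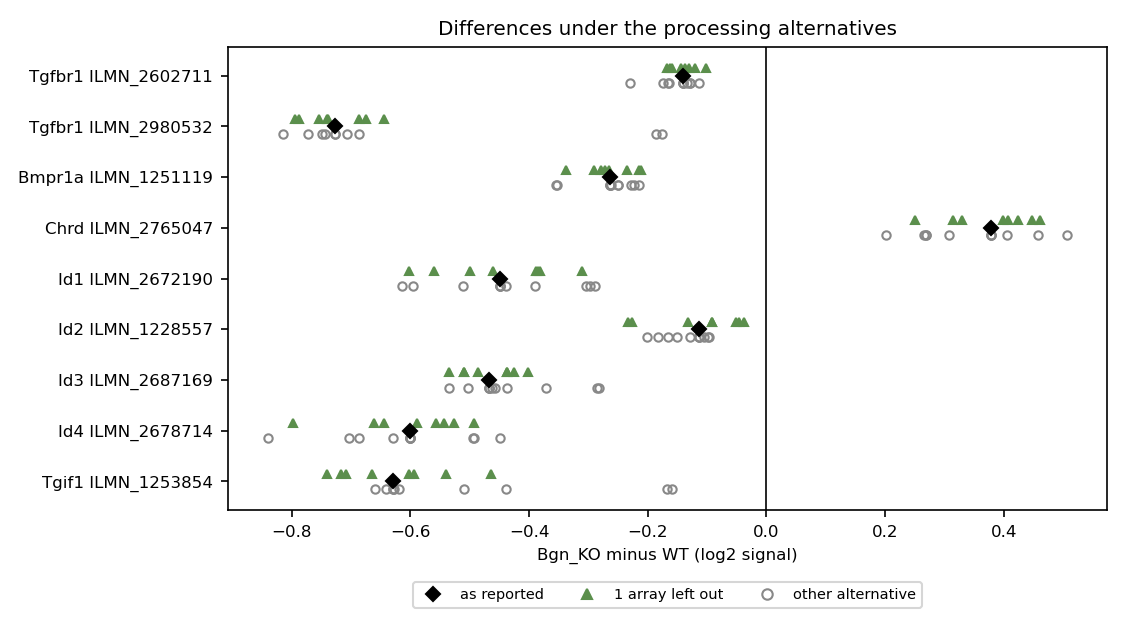
Difference in log2 signal, Bgn_KO minus WT (horizontal axis), of 9 probes as reported (black diamonds), with 1 array left out (green triangles) and under the other alternatives (open circles). No probe changes sign, and the dim probes Tgfbr1 ILMN_2980532 and Tgif1 ILMN_1253854 lie near -0.2 without background correction and in the authors' processed values.

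Further genes of the pathway, a list of 67 symbols made with earlier results of these data known, had 58 genes with a probe and 35 with a tested probe. By their brightest probes 14 were lower and 21 higher in Bgn_KO, with a median log2 difference of 0.03. Of their 47 tested probes, 0 passed 0.05 over all probes by limma, 6 (12.8%, against 10.2% of all tested probes) had an unadjusted limma p under 0.05 and 4 (8.51%, against 6.15%) had groups that did not overlap, shares near those of the whole array. The 4, named by rule and each with the higher signal in Bgn_KO, were Crim1, a BMP-binding membrane protein (0.28, limma adjusted p = 0.355), Bmp1, the protease that cleaves chordin (0.38, 0.384), Tsc22d1, a TGF-beta-induced transcription factor (0.37, 0.386, and 0.09 by its brightest probe), and Ppm1a, a phosphatase of SMADs (0.10, 0.705). Inhba, which encodes the activin A subunit, was at 6.66, 6.71, 6.40 and 6.80 on the Bgn_KO arrays and at 6.29, 6.50, 5.51 and 5.44 on the WT arrays, so that WT replicate 2 alone reached the Bgn_KO range. It differed by 0.71 on the log2 scale (limma adjusted p = 0.343). Next by p were Trim33, a SMAD4 regulator, with a log2 difference of 0.27 by 1 of its 3 tested probes (limma adjusted p = 0.456), Gdf10 with -0.40 (0.461) and Lefty1, a Nodal inhibitor, with -0.35 (0.550). The other tested probes of Trim33 differed by 0.03, for its brightest, and by -0.15. Those of Bmp1 differed by 0.21 and 0.14 and those of Ppm1a by 0.03 and -0.05, each with groups that overlapped.

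In the GRCm38.p6 gene order the 29 genes lay on many chromosomes, and 24 of them had no gene past 0.05 among the 25 nearest tested genes on each side. This window held 0 such genes for 77.8% of all 9778 placed genes. Smad5 on chromosome 13 had 3 (Ntrk2, Zfp367 and Cdk20), where 2.25% of all genes had 3 or more, and Tgfb2 on chromosome 1 had 2 (Eprs and Bpnt1), while neither differed itself past the test. Id4 lay 3 tested genes from Tpmt, Bmpr1b 3 from Gbp2b and Tgfb3 24 from Spata7, each the only such gene in its window.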

How the data were processed

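Gene expression in the hypothalamus of 4 Bgn_KO and 4 WT male mice was measured on Illumina bead arrays. The authors deposited raw signal intensities, named as non-normalized, with 1 detection p-value beside each. They also deposited processed intensities on a linear scale. The submitters' processing notes name lumi 2.10.0 and R 2.15.0, and the normalization method is not stated in the labels used here.

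Letters in the sample descriptions tie each column to its sample. From the deposited intensities, limma 3.58.1 (R 4.3.3) took the background out by normexp (offset 16, with its level read from the detection p-values), quantile normalized and took log2. The linear model gave Bgn_KO minus WT for all 14190 probes with a detection p under 0.05 on at least 4 of 8 arrays, with Benjamini-Hochberg adjustment over all of them, a threshold of 0.05 and 95% confidence intervals. The brightest tested probe stood for a gene in counts over genes. Genes were named from the platform table and, by Entrez ID (all 64 probes), from the GRCm38.p6 annotation. Levels are not compared between probes. The number of arrays limits the precision.

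Every gene is accounted for by name. Values on every array are given for probes past 0.05, with an unadjusted limma p under 0.05 or with groups that do not overlap, for the 4 Id genes and Bgn, and, outside that rule and chosen after their values were seen, for Ccn2, Bmp7, Bmp4, Tgfbr2, Smad3, Skil and Inhba. Up to 8 further pathway genes are named by overlap and p. The fit was tested on simulated data. The genes, lists and tests were chosen with earlier results of these data known. Replicate numbers could not be shown to pair the samples: deviations of same-numbered arrays from their group means correlated at -0.015, -0.19, 0.015 and 0.10. Alternatives covered background correction, scaling, filters, array weights, the block, covariates and arrays left out.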

Additional observations from a re-analysis of the deposited data

Results flagged for a closer look

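Smad4 on the array labelled WT replicate 1 stood apart from its group, at 11.59 against 11.46 to 11.48 on the other WT arrays. Its gap to the next array was 0.864 of the group's range, above Dixon's 95% critical value. It was the only such value among 78 groups of 4 arrays examined, where chance gives about 1 in 20.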

How the results depend on the processing

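The count of 1 pathway probe past 0.05 rests on Tgfbr1 ILMN_2980532 and was 1 with array weights. It was 0 without background correction, with median scaling, in the authors' processed values, with no filter on dim probes, with a detection p under 0.01 on all arrays (where the probe was not tested), with either covariate, with both replicates 4 left out, with Bgn_KO replicate 1 and WT replicate 2 left out together (added after seeing the data), and without any 1 array (0 to 0). The log2 difference of that probe ranged from -0.82 to -0.18 and its limma adjusted p from 0.0295 to 0.272. With the replicate number as a block, which could not be shown to pair the samples, 0 pathway probes passed, Tgfbr1 ILMN_2980532 had a limma adjusted p of 0.0694, and 26 of all tested probes passed in place of 72. The count over all tested probes was 47 with a detection p under 0.01 on all arrays, 116 with array weights, 42 with both replicates 4 left out and 43 to 76 with 1 array left out (43 without WT replicate 4, 44 without WT replicate 3). The direction and side of the threshold were kept for Bgn, the brightest probes of the 4 Id genes, Tgif1, Bmpr1a and Chrd, and Tgfbr1 ILMN_2602711 under all alternatives in which they were tested, though without background correction sizes were smaller. Pathway genes lower in Bgn_KO numbered 17 to 23 of 29 with 1 array left out (17 without WT replicate 2) and 24 with median scaling, which moved the median of all genes to -0.06, and their median ranged from -0.19 with median scaling to -0.05 with the meningeal covariate or no filter. Probes near background limit Tgfbr1 ILMN_2980532, Tgif1, Nog, Smad6, Tgfb1 and Ltbp1.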
